A study of Mus musculus with 16 samples.

Results

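Cortex RNA of 19-month-old mice was compared with that of 3-month-old mice, all of them homozygous for the *MRPS5* V338Y knock-in. The comparison took 8 of the 16 libraries of the series, namely the young V338Y mice 13, 14, 15 and 16 and the old V338Y mice 17, 18, 19 and 20, one library per animal, chosen by the genotype, age and mouse number in the sample labels. No treatment is given for either age, and mice of both ages carried the mutation. Cortex was taken as a whole, so that all its cell types are mixed. Wild-type mice of both ages, 4 at each, served for a test of whether the change with age differed between the genotypes. A gene entered the comparison when at least 2 of the 4 mice of an age had 10 or more counts, which left 16770 genes, 16173 of them outside chromosomes X and Y. Genes on X and Y are used below only to describe the libraries.

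*Mrps5* (ENSMUSG00000027374, chromosome 2, 127587222 to 127606829 of GRCm38) codes for a constituent of the small mitoribosomal subunit, and the V338Y exchange makes the mitochondrial ribosome misread its messages. The mitochondrial ribosome translates only the messages of the mitochondrial genome, which encode core subunits of the respiratory chain and of the ATP synthase, while the remaining subunits, the ribosomal proteins included, come from nuclear genes. In the ageing rodent brain, microglia and astrocytes are known to take on inflammatory states in which complement, MHC and interferon-induced genes are expressed, and messages of mitochondrial and proteasomal proteins are known to decline. The young mice had 657, 648, 563 and 631 normalized counts of *Mrps5* (in the order of mouse 13 to 16) and the old mice 503, 494, 471 and 448 (mouse 17 to 20), where a normalized count is the count divided by the TMM-scaled library size and multiplied by the mean library size. Every old mouse was thus below every young mouse (log2 fold change -0.39, standard error 0.07, adjusted p = 5.5e-04). In wild-type mice the log2 fold change of *Mrps5* with age was -0.37. Adjusted p-values here come from the quasi-likelihood test of edgeR with Benjamini-Hochberg adjustment over all genes tested.

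Total counts were between 13620218 and 19601664 in the young and between 10029898 and 19573427 in the old mice. The methods describe female animals, but the 4 young libraries held 1376 to 2129 counts of the Y-linked *Ddx3y* and 13 to 20 of *Xist*, whereas the 4 old ones held 0 and 7596 to 14860, so that age and the sex that the libraries show cannot be told apart. The labels of all old libraries end in -N and those of the young ones do not. What this stands for is not known here, and it cannot be told apart from age either. Mitochondrial ribosomal RNA took 3.62% to 4.55% of the counts in young and 6.72% to 7.35% in old mice. *Rn7sk*, *Rpph1* and *Rmrp* together took 2.59% to 3.33% and 1.93% to 2.09%. The top 10 genes of a library took 9.02% to 10.1% and 11.8% to 12.4%. The cortical genes *Slc17a7* and *Rorb* were present in every library, at no less than 6832 and 676 normalized counts. The methods separate cortex from cerebellum, yet the summed normalized counts of 14 cerebellum genes were 24981, 1945, 34644 and 22688 in the young and 2157, 1909, 1996 and 1834 in the old mice. Young mice 13, 15 and 16 therefore carried cerebellar messages that young mouse 14 and all old mice had only at a low level. The labels describe RNA extraction from muscle although the tissue is given as brain, and 10 skeletal muscle genes summed to 108, 171, 131 and 122 in the young and 551, 341, 3059 and 334 in the old mice, with old mouse 19 far above the rest. Of these muscle genes 8 were higher with all mice, 7 without old mouse 19 and 0 without young mouse 14. The median log2 fold changes were 4.02, 2.72 and 4.47 in these fits. With mouse 14 as the lone young mouse, assumed to vary like the old group, 7735 genes changed, 3856 higher and 3879 lower. With the cerebellum markers as a covariate 5048 changed, and among the genes named below the calls of *Map2*, *Grin2b*, *Arc*, *Npas2*, *Neurod1*, *Cox6a1*, *Atp6v0a2*, *Cdkn1a*, *Gabra6*, *Crtam*, *Ckm*, *Myh1* and *Alb* and of the beta-globin gene *Hbb-bs* were lost. This covariate goes largely with age, since of the young mice only mouse 14 was at the level of the old ones. A call lost with it, here or below, therefore cannot tell a cerebellar share from a loss of precision.

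**Figure D1:**
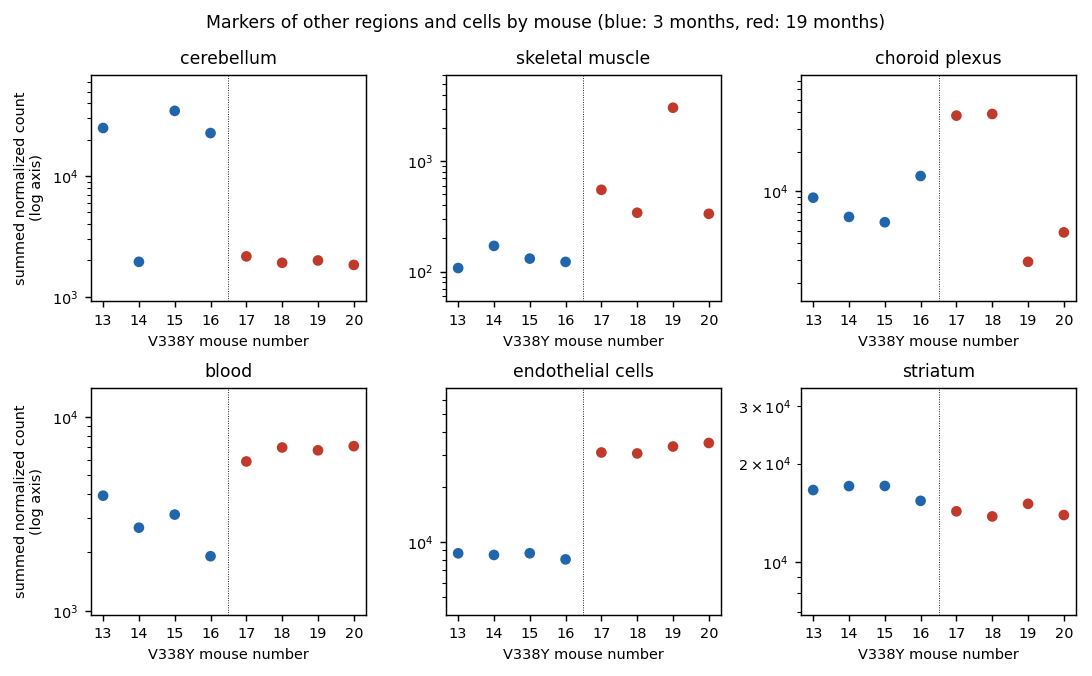
Summed normalized counts (log axis) of the markers of other regions and cells in each V338Y mouse, with mice 13 to 16 at 3 months and mice 17 to 20 at 19 months; each point is 1 mouse. Cerebellum genes were high in young mice 13, 15 and 16 only, skeletal muscle genes highest in old mouse 19, and endothelial and blood genes higher in every old mouse than in every young one.

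Between 3 and 19 months, 8181 of the 16770 genes (48.8%) changed with an adjusted p under 0.05, with 3875 higher (23.1%) and 4306 lower (25.7%) in the old mice. The rises were larger than the falls: 1360 genes rose (8.11%) and 265 fell (1.58%) by at least 2-fold. The young and the old mice did not overlap for 7494 genes (44.7%), and the median log2 fold change over all genes was -0.03. Lists of vascular, interferon and reactive astrocyte genes had the highest medians in the plot of the gene lists, up to a log2 fold change of 2.12 for endothelial genes. The medians of the lists of mitochondrial proteins made from nuclear genes, of the proteasome and of the V-ATPase lay between -0.22 and -0.40.

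**Figure D2:**
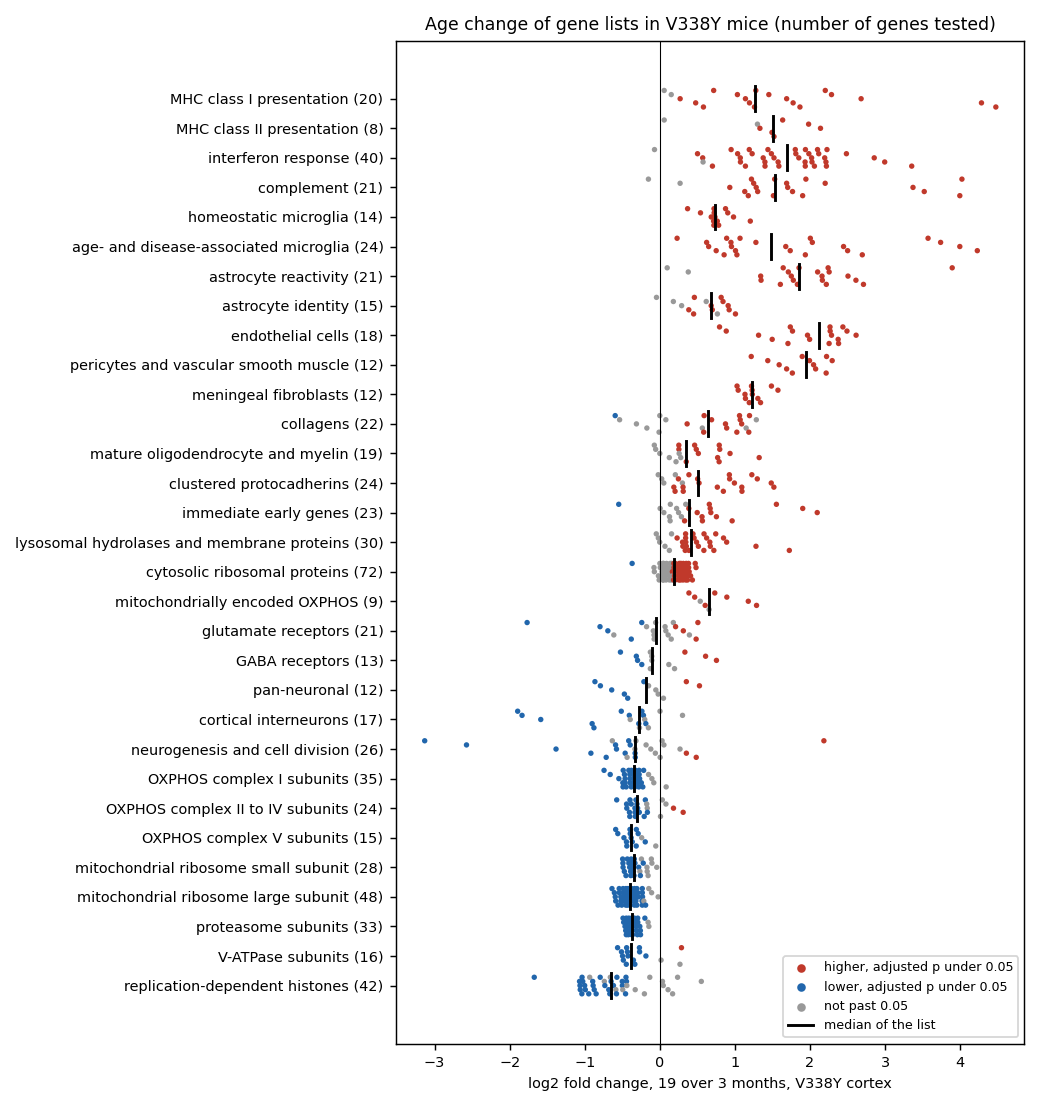
Log2 fold change of 19 over 3 months in V338Y cortex for the genes of 31 lists, 1 point per gene tested, with the number of genes in brackets and the median of each list as a black bar. Red and blue points had an adjusted p under 0.05. Endothelial genes had the highest median (2.12) and replication-dependent histones the lowest (-0.66) of the lists drawn.

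Antigen presentation by MHC class I, in which peptides cut by the immunoproteasome are carried into the endoplasmic reticulum by Tap and shown at the cell surface with B2m, rose almost as a whole. Of 20 genes tested, 18 were higher and none lower at 19 months, with a median log2 fold change of 1.27. *B2m*, the light chain of every class I molecule, had 678, 584, 488 and 569 normalized counts in the young and 2165, 2009, 2169.8 and 2115 in the old mice (log2 fold change 1.87, standard error 0.08, adjusted p = 4.3e-09). The heavy chain genes *H2-Q6*, *H2-Q7* and *H2-Q4* had the largest rises of the list, from between 5.56 and 9.05 to between 132 and 177, from between 1.88 and 7.04 to between 69.1 and 92.3 and from between 27.8 and 39.1 to between 216 and 240.3 normalized counts per mouse, with log2 fold changes of 4.47, 4.28 and 2.68. These heavy chains are close paralogs, so the split of reads between them is uncertain. *Tap1*, a subunit of the peptide transporter, rose from between 52.9 and 64.4 to between 132 and 179 (log2 fold change 1.45, standard error 0.13, adjusted p = 1.8e-06). As this is bulk tissue, more cells of a kind and more RNA per cell cannot be told apart, here or below.

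Interferons induce antiviral and antimicrobial genes through Stat and Irf factors, and Irf factors bind elements of the form GAAANNGAAA. Of 40 interferon response genes, 38 were higher and 0 lower in the old mice, with a median of 1.69. *Ifi44* had 12.1, 3.97, 10.3 and 7.52 normalized counts in the young and 58.9, 68.1, 59 and 54.5 in the old mice (log2 fold change 2.85, standard error 0.26, adjusted p = 2.5e-06). *Sp100*, a nuclear body protein, went from between 25.4 and 40.2 to between 135 and 176 (log2 fold change 2.22, adjusted p = 2.3e-07), and the guanylate-binding protein gene *Gbp3* from between 41.4 and 83.4 to between 270.2 and 290.1 (log2 fold change 2.23, adjusted p = 1.7e-06). No old mouse overlapped a young one for any of the 3 genes.

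In the 250 bases before the start in RefSeq (build GRCm38.p6), the letters GAAANNGAAA stood on either strand for 936 of 27025 genes (3.46%), overlapping matches counted. They stood before 14 of 28 interferon response genes with a window, 3 of 17 MHC class I genes (17.6%) and 1 of 14 complement genes (7.14%). Of the GTPase list described below, written after values had been seen, 9 of 10 genes held them (90.0%). A match of letters is a description and not a site of binding. The windows of *Ifi44*, *Sp100*, *H2-Q4*, *H2-Q6*, *H2-Q7* and *Tap1*, and another window of *Gbp3*, held no match. Stretches are given only for genes with a match. *B2m* and *Gbp3* rose with age, and for *Gbp7*, *Igtp*, *Irgm2* and *Tgtp1* the rise also differed between the genotypes, as described after the stretches. Each is 100 bases long, 5′ to 3′ on the strand of the gene, and the capitals mark the matches, which read TTTCNNTTTC where they lie on the other strand.
B2m, chr2:122147503-122147602, plus strand: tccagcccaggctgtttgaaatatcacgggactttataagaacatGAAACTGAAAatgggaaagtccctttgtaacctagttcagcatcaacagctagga
Gbp3, chr3:142559944-142560043, plus strand: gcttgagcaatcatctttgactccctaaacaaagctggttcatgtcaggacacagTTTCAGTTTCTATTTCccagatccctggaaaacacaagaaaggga
Gbp7, chr3:142530236-142530335, plus strand: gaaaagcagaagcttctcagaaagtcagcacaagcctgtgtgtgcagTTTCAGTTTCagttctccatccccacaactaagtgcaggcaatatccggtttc
Igtp, chr11:58199456-58199555, plus strand: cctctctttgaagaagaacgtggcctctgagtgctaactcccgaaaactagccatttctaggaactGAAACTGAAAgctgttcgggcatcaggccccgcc
Irgm2, chr11:58214868-58214967, plus strand: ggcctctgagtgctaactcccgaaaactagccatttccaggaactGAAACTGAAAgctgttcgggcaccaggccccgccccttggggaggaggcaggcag
Tgtp1, chr11:48992269-48992368, minus strand: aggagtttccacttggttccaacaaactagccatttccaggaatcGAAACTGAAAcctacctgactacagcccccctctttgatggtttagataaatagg

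The change with age differed between the genotypes for 9 of 16831 genes (0.0535%) with an adjusted p under 0.05 in a fit of all 16 libraries, of which the wild-type ones were shallower with 6181448 to 14795474 counts, whereas 1723 had an unadjusted p under 0.05. For all 9 the rise was smaller in V338Y than in wild-type mice, or absent, and 5 of them are interferon-inducible GTPases, *Tgtp1*, *Gbp4*, *Igtp*, *Irgm2* and *Gbp7*, which act on vacuoles that hold microbes. *Gbp4* (chromosome 5, 105115767 to 105139586) had 14.1 to 33.2 normalized counts in young and 387 to 461 in old wild-type mice, against 23.4 to 33.6 and 122 to 134 in V338Y mice. This gave log2 fold changes of 4.13 (wild-type) and 2.09 (V338Y) with age (difference -2.02, standard error 0.22, adjusted p = 5.6e-05). *Tgtp1* (chromosome 11, 48985327 to 48994172) had 3.28 to 6.87 in young and 80.3 to 104 in old wild-type mice, against 6.03 to 11.2 and 22.9 to 39.9 in V338Y mice (difference -2.52, standard error 0.41, adjusted p = 0.014). For *Gbp4* the young mice of the genotypes overlapped. For *Tgtp1* the young V338Y mice were mostly higher, with only young wild-type mouse 12 (6.87) above a young V338Y mouse (mouse 14, 6.03). Its difference thus lay partly in the young mice. All old V338Y mice lay below all old wild-type mice for both genes. Old *Igtp* values were 328 to 384 in wild-type and 139 to 161 in V338Y mice (difference -1.50, standard error 0.24, adjusted p = 0.014). *Irgm2* had 348 to 363 and 132 to 175 (difference -1.35, standard error 0.24, adjusted p = 0.032). Near-identical copies such as *Tgtp1* and *Tgtp2* share reads, so the level of a single copy is uncertain. The annotated spans of *Igtp* (58199556 to 58207591) and *Irgm2* (58199618 to 58222782) on chromosome 11 overlap, so their counts may not be separate. The *Irgm2* and *Tgtp1* stretches given above lie inside the annotated spans of those genes. The end of the *Gbp3* stretch runs past the annotated start of *Gbp3*.

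Beyond the GTPases, *Tap1* had 199 to 245 normalized counts in old wild-type and 111 to 151 in old V338Y mice (difference -1.09, standard error 0.19, adjusted p = 0.023). Young mice had 30.7 to 46.9 in wild-type and 43.0 to 54.3 in V338Y, with only wild-type mouse 12 above a V338Y mouse (mouse 15). The *Tap1* difference thus lay partly in the young mice. Old values of the next gene follow in the same order. *Fmod*, which encodes the collagen-binding proteoglycan fibromodulin, had 488 to 583 and 298 to 432 (difference -0.87, standard error 0.16, adjusted p = 0.032). The list of 15 interferon-inducible GTPases was written after values had been seen. All 15 rose with age in V338Y mice with an adjusted p under 0.05, with a median log2 fold change of 2.03 beside 3.15 in wild-type mice. For 14 of them all old V338Y mice were below all old wild-type mice, against 4.78% of all genes. *Gbp9* was among those without a called difference in the age change, with 2.27 in V338Y and 2.38 in wild-type mice. *Gbp4* passed in all 23 alternatives of this test, *Gbp7* and *Igtp* in 22 and *Tgtp1* in 21 of the 22 that gave a value, while *Irgm2* passed in 13 and *Fmod* in 12. The count itself rested on single libraries: it was 1 without the young wild-type mouse 10, between 4 and 5 without any of the old wild-type mice 13, 14 and 15 or the old V338Y mouse 19, 14 without the old V338Y mouse 17, 18 without the young V338Y mouse 15 or 16 and 57 without the young V338Y mouse 14. Median age changes of the MHC class I list were 1.27 in V338Y and 1.74 in wild-type mice, and of the interferon list 1.69 and 2.26. In each of these lists the difference was called for 1 gene. A smaller median in V338Y mice was not particular to them: it was 1.53 beside 1.95 for complement. For endothelial genes it was 2.12 beside 2.06. The slope of the V338Y on the wild-type change over all genes outside X and Y was 0.80.

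**Figure D3:**
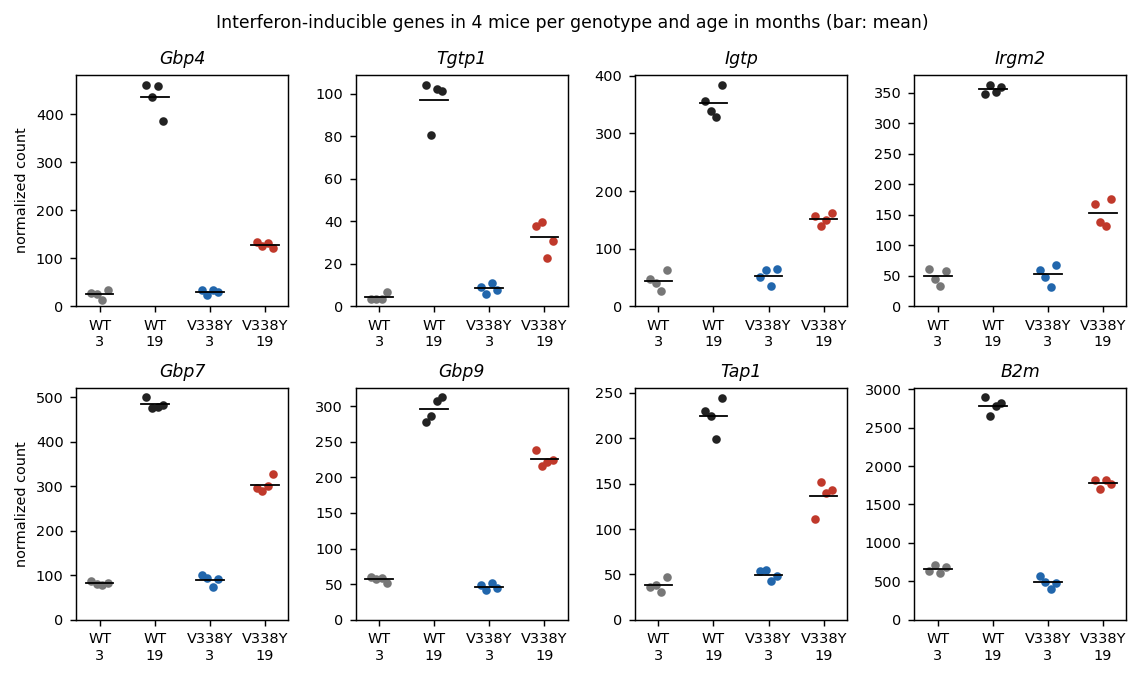
Normalized counts of 8 interferon-inducible genes in 4 mice of each genotype at 3 and 19 months, with 1 point per mouse and the group mean as a bar. Old V338Y mice lay below old wild-type mice for every gene drawn, for *Gbp4* at 122 to 134 against 387 to 461; the difference of the age change was not called for *Gbp9* and *B2m*.

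Over 15469 genes outside X and Y, the age changes of the genotypes, which share no mice, correlated with a Pearson r of 0.90 across genes, and 86.5% had the same sign. Genes are not independent replicates, and age goes with the same shift in Y-linked and cerebellar messages in both genotypes. The slope of the V338Y on the wild-type change was 0.80.

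**Figure D4:**
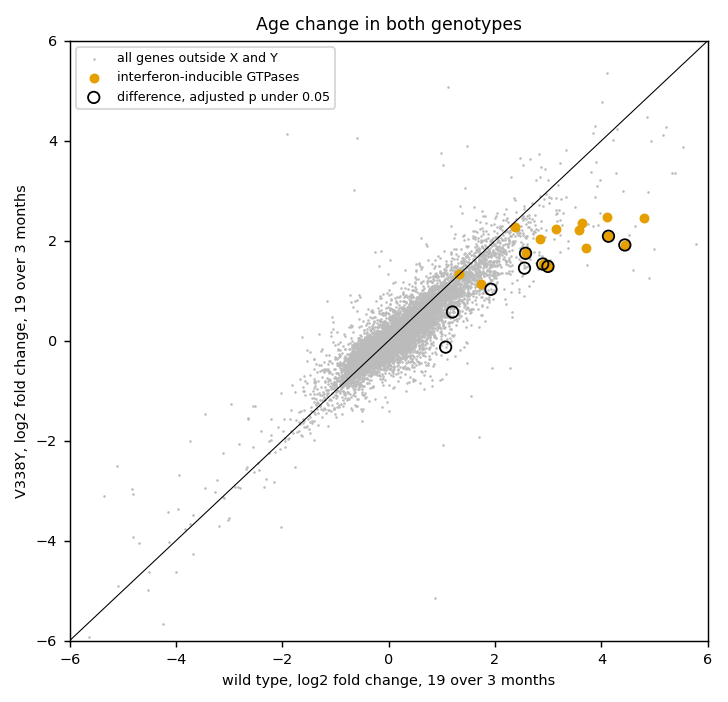
Log2 fold change of 19 over 3 months in V338Y (y axis) against wild-type mice (x axis) for 15469 genes outside chromosomes X and Y, of which 23 lie beyond the axes. The line marks equal change, orange points are interferon-inducible GTPases, and circles mark the 9 genes with a called difference, all under the line.

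MHC class II, which presents peptides to helper T cells, showed 6 of 8 genes higher and none lower, with 2 further genes of the list under the count minimum. *Cd74*, its invariant chain, had 64.3, 55.6, 35.6 and 61.1 normalized counts in the young and 277, 228, 191 and 175 in the old mice (log2 fold change 1.98, standard error 0.18, adjusted p = 4.6e-06). The class II chains *H2-Ab1* and *H2-Aa* rose, with log2 fold changes of 2.14 (adjusted p = 9.6e-05) and 1.63 (adjusted p = 1.1e-04). Complement tags synapses and debris for uptake, and 19 of 21 of its genes were higher (median 1.53). *C4b*, the component that marks targets early in the cascade, had 583, 479, 459 and 472 normalized counts in the young and 5925, 5029, 5082 and 4594 in the old mice, a 10.3-fold rise (log2 fold change 3.37, standard error 0.10, adjusted p = 3.7e-10). *C3*, on which all routes of complement meet, went from between 16.9 and 25.3 to between 269 and 399 (log2 fold change 4.02, standard error 0.17, adjusted p = 3.2e-09). The gap between the ages was wide for both, with no mouse in between.

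Microglia, the macrophages of the brain parenchyma, rose in both sets of their markers. All 14 genes of homeostatic microglia were higher (median 0.73), as were all 24 tested genes of the state seen with age and disease (median 1.48). *Csf1r*, the receptor on which microglia depend, had 1228, 1290.4, 947 and 1174 normalized counts in the young and 2317, 2061, 2142 and 2174 in the old mice (log2 fold change 0.90, standard error 0.08, adjusted p = 3.6e-06). *Trem2*, a lipid receptor, rose, with a log2 fold change of 0.98 (adjusted p = 1.2e-05), and the purinergic receptor gene *P2ry12* with 0.72 (adjusted p = 1.9e-05). *Itgax*, the integrin chain also called CD11c, had 5.03, 3.97, 1.15 and 4.7 in the young and 76.4, 60.7, 58.2 and 57.4 in the old mice (log2 fold change 3.99, standard error 0.28, adjusted p = 2.3e-07). *Clec7a*, a receptor for fungal glucans, rose from between 4.6 and 8.47 to between 66 and 78 (log2 fold change 3.57, adjusted p = 8.5e-08), and the lysozyme gene *Lyz2* from between 112 and 169.9 to between 747 and 1001 (log2 fold change 2.70, adjusted p = 1.8e-07). The genes of the age-associated state thus rose by more than those of homeostatic microglia in their medians. Of 6 genes of perivascular macrophages 4 were higher, with *Cd163* at 21.6 to 32.6 and 86.5 to 98.3 and *Mrc1* at 94.2 to 135 and 348 to 433 normalized counts. Only 5 of 18 lymphocyte genes passed the count filter and 3 of them were higher, among them the immunoglobulin heavy chain *Ighm* (log2 fold change 0.76, adjusted p = 4.5e-05). With mouse 14 as the lone young mouse, the medians of the microglial lists were 0.58 and 1.33, with 14 and 23 genes called, and with the cerebellum covariate 9 homeostatic genes were called at a median of 0.53.

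Astrocytes support synapses and blood vessels and respond to injury with a set of reactive genes. Of 21 such genes 19 were higher and none lower, with a median of 1.85, while 10 of 15 identity genes were higher with a median of 0.68. *Gfap*, the intermediate filament protein of reactive astrocytes, had 2645, 2452, 1898 and 2713 normalized counts in the young and 12878, 10777, 11414 and 11269 in the old mice (log2 fold change 2.25, standard error 0.11, adjusted p = 3.3e-08). *Osmr*, the receptor of oncostatin M, went from between 68.7 and 88.5 to between 462 and 569 (log2 fold change 2.71, adjusted p = 1.3e-09). The iron-binding lipocalin *Lcn2* had 2.01, 10.3, 6.9 and 0 in the young and 81.2, 61.8, 68.2 and 92.4 in the old mice (log2 fold change 3.89, standard error 0.45, adjusted p = 5.6e-05). No young mouse reached an old one for these genes. Among identity genes, the glutamate transporter *Slc1a2* rose, with a log2 fold change of 0.92 (adjusted p = 2.8e-05) and the water channel *Aqp4* with 0.91 (adjusted p = 6.2e-05).

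**Figure D5:**
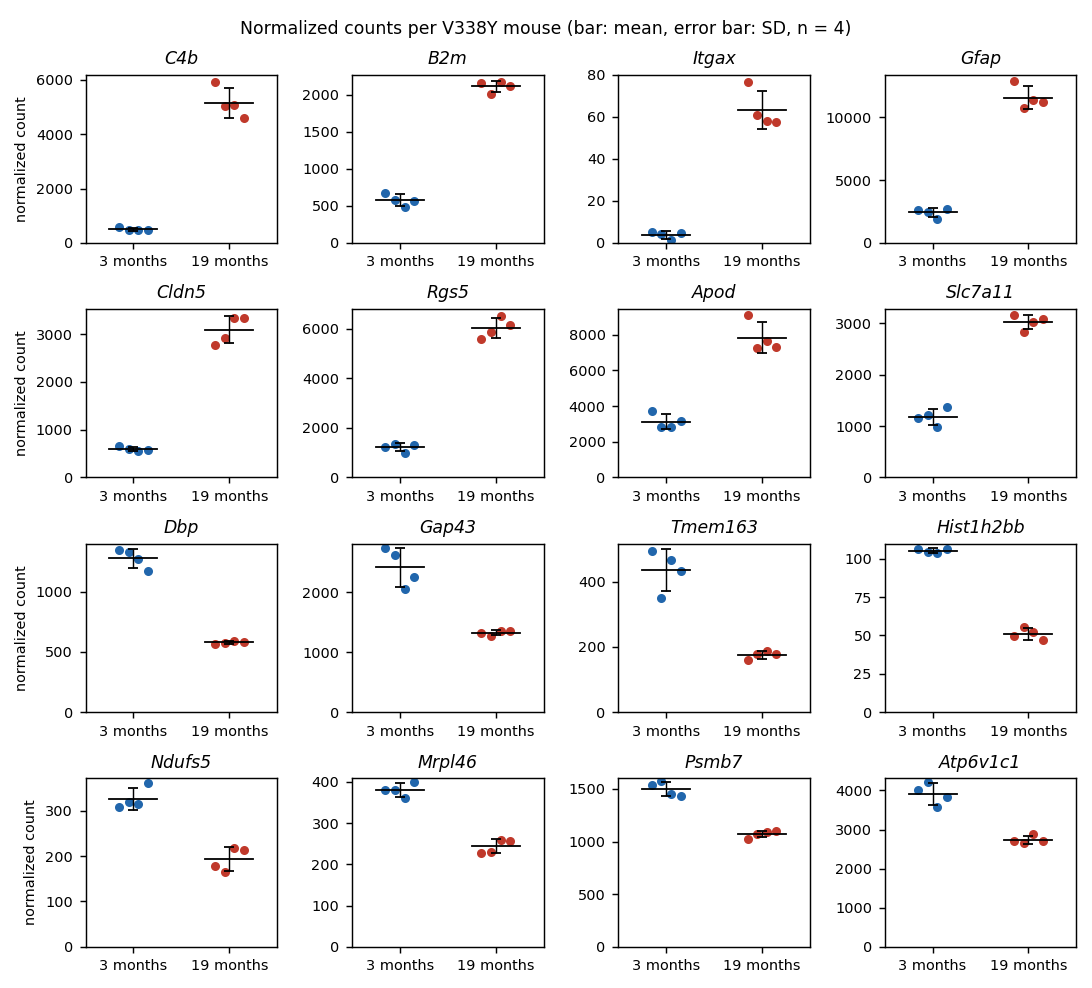
Normalized counts of 16 genes in the 4 young (blue) and 4 old (red) V338Y mice, with the mean as a bar and the SD as an error bar; all axes start at 0. The groups do not overlap for any gene drawn. The first 8 genes rose and the last 8 fell with age.

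Genes of the blood vessels and meninges rose throughout the lists. All 18 endothelial genes (median 2.12), all 12 genes of pericytes and vascular smooth muscle (median 1.94) and all 12 genes of meningeal fibroblasts (median 1.22) were higher at 19 months. *Cldn5*, the tight junction protein of the blood-brain barrier, had 648, 605, 547 and 577 normalized counts in the young and 2777, 2921, 3331 and 3339 in the old mice, a 5.2-fold rise (log2 fold change 2.38, standard error 0.08, adjusted p = 4.3e-10). *Vwf*, the clotting protein stored by endothelium, went from between 339 and 727 to between 2608 and 3143 (log2 fold change 2.61, adjusted p = 1.2e-04), and the surface antigens *Ly6a* and *Ly6c1* rose, with log2 fold changes of 2.49 and 2.44. In mural cells, *Rgs5* had 1244, 1359, 999 and 1298 in the young and 5569.5, 5850.2, 6509 and 6133 in the old mice (log2 fold change 2.29, standard error 0.09, adjusted p = 3.0e-09). The potassium channel regulator *Abcc9* and the actin-binding *Tagln* rose, with log2 fold changes of 2.22 (adjusted p = 4.7e-09) and 2.21 (adjusted p = 2.6e-09). The growth factor *Igf2* and the GABA transporter *Slc6a13* of the meninges rose, with log2 fold changes of 1.57 (adjusted p = 4.6e-05) and 1.49 (adjusted p = 6.9e-06). Haemoglobin and other blood genes moved in the same direction, with 4 of 5 higher (0 with the cerebellum covariate, at a median of 1.28) and summed counts of 1912 to 3927 in the young and 5898 to 7077 in the old mice. How much of the immune and astrocyte rises goes with vessels and meninges in the tissue taken was not tested.

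Of 22 collagen genes 12 were higher and 1 lower (median 0.64). *Col4a1*, of the vascular basement membrane, had 905, 1046, 723 and 754 normalized counts in the young and 1922, 1888, 2023 and 1969 in the old mice (log2 fold change 1.18, standard error 0.10, adjusted p = 3.7e-06), and the fibrillar *Col3a1* rose, with a log2 fold change of 1.19 (adjusted p = 5.1e-05). *Col11a1* was the collagen that fell, from 218, 338.5, 205 and 220.1 to 183, 173, 163 and 138 (log2 fold change -0.60, standard error 0.16, adjusted p = 0.011), with young mouse 14 the highest. The matrix around neurons changed less, with 8 of 15 genes higher, none lower and a median of 0.21. Its proteoglycan neurocan, *Ncan*, rose from between 2153 and 2524 to between 3468 and 4056 (log2 fold change 0.69, adjusted p = 5.7e-06) and its linker tenascin-R, *Tnr*, from between 1289 and 1713 to between 2259 and 2456 (log2 fold change 0.65, adjusted p = 2.1e-05).

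Oligodendrocytes wrap axons in myelin. Of 19 genes of mature cells and myelin 12 were higher and none lower, with a median of 0.35. *Mbp*, myelin basic protein, had 27456, 27841, 22708 and 25254 normalized counts in the young and 48052, 45232, 43745 and 41553 in the old mice (log2 fold change 0.79, standard error 0.07, adjusted p = 3.5e-06). The lipid carrier *Apod* had the largest rise of the list, from 3726, 2822, 2839.7 and 3152 to 9119, 7267, 7672 and 7306 (log2 fold change 1.32, standard error 0.10, adjusted p = 1.3e-06), followed by *Hapln2* and *Mobp* with 0.93 (adjusted p = 1.5e-06) and 0.80 (adjusted p = 2.4e-06). Among genes of precursors and newly forming cells, 8 of 14 were higher and 1 lower. *Cspg4*, the proteoglycan NG2, rose from between 371 and 429.8 to between 876 and 962 (log2 fold change 1.16, adjusted p = 3.6e-08), but pericytes also express it. *Bmp4* and the calcium release channel *Itpr2* rose, with log2 fold changes of 1.10 (adjusted p = 2.2e-04) and 0.94 (adjusted p = 5.8e-08), while the kinase *Fyn* fell from between 1364 and 1519 to between 1078 and 1185 (log2 fold change -0.30, adjusted p = 8.7e-04).

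Neuronal genes changed by less and in both directions. Of 12 pan-neuronal genes 6 were lower and 2 higher (median -0.18), beside 25.7% lower and 23.1% higher over all genes. *Gap43*, a growth cone protein, had 2727, 2626, 2047 and 2248 normalized counts in the young and 1322, 1264, 1358 and 1354 in the old mice (log2 fold change -0.87, standard error 0.08, adjusted p = 4.9e-06). *Stmn2*, which regulates microtubules in growing axons, fell from between 2869.9 and 3384 to between 1694 and 2009 (log2 fold change -0.79, adjusted p = 1.7e-06), and the nuclear protein *Rbfox3* (NeuN) from between 1809.7 and 2088 to between 1353 and 1455 (log2 fold change -0.47, adjusted p = 4.1e-05). *Map2* and the neurofilament gene *Nefm* rose, with log2 fold changes of 0.35 (adjusted p = 3.4e-04) and 0.53 (adjusted p = 1.5e-04). In excitatory neurons of the cortex 4 of 13 genes were higher and 3 lower, shares near the 23.1% and 25.7% over all genes. The kinase *Camk2a* had 6645, 9280.4, 9551 and 7420.1 in the young and 15637, 17374, 17749 and 20922 in the old mice (log2 fold change 1.12, standard error 0.13, adjusted p = 7.4e-05). The transcription factor gene *Neurod6* fell (log2 fold change -0.57, adjusted p = 0.014). With mouse 14 as the lone young mouse 7 of these excitatory genes were lower (median -0.27), and without old mouse 19 2 were higher. Of 17 interneuron genes 11 were lower and 0 higher (median -0.28). The calcium-binding proteins among them, *Pvalb*, *Calb1* and *Calb2*, are also made by cells of the cerebellum, and *Pvalb* had 2545, 1089, 2947 and 2185 in the young and 685, 689, 802 and 729.9 in the old mice (log2 fold change -1.59, standard error 0.30, adjusted p = 0.005), with young mouse 14 nearest to the old ones. With mouse 14 as the lone young mouse, 13 interneuron genes were lower with a median of -0.52.

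Of 21 glutamate receptor genes 4 were higher and 5 lower (median -0.06), and of 13 GABA receptor genes 3 and 4 (median -0.11), shares near those over all genes. Without old mouse 19, or with the cerebellum covariate, 2 glutamate receptor genes were lower. *Grin2b*, an NMDA receptor subunit, had 6918 to 10519.9 normalized counts in the young and 12421 to 14461 in the old mice (log2 fold change 0.51, adjusted p = 0.0058). The AMPA receptor subunit *Gria4* had 3959, 2838, 4535 and 3967 and 2247, 2204, 2226 and 2120.5 (log2 fold change -0.80, standard error 0.12, adjusted p = 3.7e-04), and with mouse 14 as the lone young mouse its log2 fold change was -0.37. The GABA receptor subunit gene *Gabra2* rose, with a log2 fold change of 0.75 (adjusted p = 1.6e-05). Among 23 immediate early genes, which neurons and vascular cells switch on within minutes of a stimulus, 13 were higher and 1 lower. With the cerebellum covariate 8 were higher and 3 lower. *Arc*, a synaptic protein, had 2146, 1981, 1374 and 1108 in the young and 3068, 3241, 3399 and 3175 in the old mice (log2 fold change 0.96, standard error 0.20, adjusted p = 0.0058). *Klf4* rose from between 54 and 68.7 to between 242 and 268 (log2 fold change 2.10, adjusted p = 9.9e-09). The growth factor *Bdnf* was the gene that fell without the covariate, from between 411 and 545 to between 331 and 354 (log2 fold change -0.55, adjusted p = 1.9e-04).

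*Arntl* and *Npas2*, of the activating arm of the clock, rose, with log2 fold changes of 0.27 (adjusted p = 0.0016) and 0.49 (adjusted p = 0.0011). The output gene *Dbp*, which they activate, had 1342, 1328, 1268 and 1167 normalized counts in the young and 562, 574, 593 and 583 in the old mice (log2 fold change -1.14, standard error 0.06, adjusted p = 1.7e-08), and the repressor *Ciart* fell from between 183 and 210.1 to between 69.1 and 111 (log2 fold change -1.18, adjusted p = 2.0e-05). Of 20 clock genes 4 were higher and 4 lower, or 8 lower without mouse 14, and the counts with all mice are no larger a share than over all genes. The hour at which the mice were sampled is not given in the sources used here, and its part was not tested. Clustered protocadherins, the surface proteins by which neurons tell their own branches from those of others, were higher for 19 of 24 genes and lower for none (median 0.51). *Pcdhb2* had 40.2, 53.2, 75.8 and 51.7 in the young and 137, 180.1, 165 and 144 in the old mice (log2 fold change 1.52, standard error 0.17, adjusted p = 1.4e-05) and *Pcdhb6* rose from between 42.9 and 56.3 to between 129 and 142 (log2 fold change 1.48, adjusted p = 1.2e-06). Exons shared between the genes of a protocadherin cluster make the split of their reads uncertain.

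Genes of developing neurons and of cell division were lower for 12 and higher for 3 of 26 (median -0.33). *Marcksl1*, an actin regulator of growing neurites, had 626, 671, 511 and 598 normalized counts in the young and 363, 284, 310.1 and 324 in the old mice (log2 fold change -0.92, standard error 0.09, adjusted p = 7.3e-06). *Eomes*, a transcription factor of neuronal progenitors, had 122, 36.5, 64.4 and 108 in the young and 15.9, 11.5, 12.5 and 15.6 in the old mice (log2 fold change -2.58, adjusted p = 4.7e-04), with every young mouse above every old one, and its log2 fold change against mouse 14 alone was -1.42. *Neurod1* had 1180.2, 167, 1333 and 946 in the young and 98.7, 106, 106 and 99.3 in the old mice. Its log2 fold change was -3.13, and -0.71 against mouse 14 alone. *Nes*, made by progenitors and by vessel cells, rose as well (log2 fold change 2.18, adjusted p = 3.0e-08). Histone genes whose messages are made in dividing cells, a list written after values had been seen, were lower for 27 of 42 and higher for none (median -0.66), and for 17 with the cerebellum covariate. *Hist1h2bb* had 107, 104, 103 and 106 in the young and 49.4, 55.5, 52.4 and 46.7 in the old mice (log2 fold change -1.04, standard error 0.12, adjusted p = 1.7e-05), and *Hist1h1a* 149 to 177 and 73.2 to 85.6 (log2 fold change -0.99, adjusted p = 9.4e-06). Messages of this kind carry no poly(A) tail, so their capture depends on the library kit.

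The respiratory chain split by genome. Of 74 tested genes of OXPHOS subunits in the nucleus 61 were lower and 2 higher at 19 months. By complex, 31 of 35 genes of complex I fell and none rose (median -0.35). For complexes II to IV, 17 of 24 fell and 2 rose (median -0.30), and for complex V, the ATP synthase, 13 of 15 fell and none rose (median -0.38). The wild-type medians of these lists were -0.46, -0.40 and -0.51. *Ndufs5*, a complex I subunit, had 309, 320.2, 315 and 361 normalized counts in the young and 178, 164, 218 and 214 in the old mice (log2 fold change -0.74, standard error 0.10, adjusted p = 7.2e-05). *Ndufs4* fell from between 847 and 968 to between 586 and 619 (log2 fold change -0.55, adjusted p = 1.3e-05). The cytochrome oxidase subunit *Cox5a* fell from between 1496 and 1835 to between 1047 and 1219.6 (log2 fold change -0.58, adjusted p = 5.1e-05), whereas *Cox6a1* of the same complex rose from between 2395 and 2951 to between 3240.1 and 3457 (log2 fold change 0.31, adjusted p = 0.0027). *Atp5g3*, which forms the rotor ring of the ATP synthase, had 2582, 2551, 2381 and 2480.3 in the young and 1627, 1666, 1754 and 1725 in the old mice (log2 fold change -0.56, standard error 0.05, adjusted p = 3.0e-06).

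The messages of the mitochondrial genome moved the other way. Of 13 genes, 4 (*mt-Co2*, *mt-Co3*, *mt-Atp6* and *mt-Atp8*) did not reach the count minimum, and of the other 9, 7 were higher and none lower (median 0.66, and 0.87 in wild-type mice). *mt-Nd3* had 42.2, 57.2, 43.7 and 63 normalized counts in the young and 119, 129, 124 and 134 in the old mice (log2 fold change 1.29, standard error 0.14, adjusted p = 1.4e-05). The 9 tested genes summed to 124042 or more in every mouse, so *mt-Nd3* was a small part of them. Why it and the 4 genes under the minimum had so few counts was not tested, and their levels are uncertain. *mt-Nd2* had 913, 798, 1266 and 971 in the young and 1675, 1658, 1644 and 2324 in the old mice (log2 fold change 0.89, standard error 0.17, adjusted p = 0.0026), with old mouse 20 above the others, and against mouse 14 alone its adjusted p was 0.052. *mt-Nd6*, the one subunit read from the light strand, rose from between 145 and 202 to between 262 and 293 (log2 fold change 0.73, adjusted p = 1.3e-04). Mitochondrial ribosomal RNA took a larger share of the counts in the same old libraries, as given above, and its part in these rises was not tested.

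Messages for proteins of the mitochondrial ribosome, the machine that the V338Y exchange makes error-prone, fell together. In the small subunit 20 of 28 genes were lower (median -0.35) and in the large subunit 44 of 48 (median -0.40), with none higher in either. The fall was not particular to V338Y mice: the wild-type medians were -0.35 and -0.48. A difference of the age change was called for no gene of either list. With the cerebellum markers as a covariate, 10 and 28 genes were called lower, at medians of -0.33 and -0.42. *Mrpl46* had 381, 379.8, 361 and 399.7 normalized counts in the young and 228, 230.4, 259 and 257 in the old mice (log2 fold change -0.64, standard error 0.07, adjusted p = 2.0e-05), *Mrpl1* fell from between 351 and 380.4 to between 224 and 268 (log2 fold change -0.61, adjusted p = 4.1e-05) and *Mrps14* from between 424 and 534 to between 315 and 344 (log2 fold change -0.49, adjusted p = 3.3e-04). Mitochondrial chaperones and proteases, which are raised when proteins misfold in the organelle, were lower for 10 of 16 genes and higher for none (median -0.22, and -0.23 in wild-type mice). With the covariate 4 were lower. *Hspd1*, the chaperonin Hsp60, had 2481, 2222, 1903 and 2188 in the young and 1726, 1711, 1825 and 1693 in the old mice (log2 fold change -0.34, standard error 0.07, adjusted p = 0.0021), and *Phb*, a membrane scaffold, fell by 0.47 on the log2 scale (adjusted p = 2.4e-04). Of 18 genes of the integrated stress response 6 were higher and 5 lower (median -0.02), beside 23.1% and 25.7% over all genes, or 2 lower with the covariate. Its transcription factor *Atf4* fell from 1966, 1742, 1587 and 1960.1 to 1439, 1403, 1367 and 1304 (log2 fold change -0.40, standard error 0.07, adjusted p = 6.4e-04), while the cystine transporter *Slc7a11*, an Atf4 and Nrf2 target, rose from 1161, 1208, 991 and 1364 to 3157, 2832, 3017 and 3087 (log2 fold change 1.35, standard error 0.08, adjusted p = 9.1e-08). *Nupr1* rose, with a log2 fold change of 1.18 (adjusted p = 3.2e-05). Antioxidant genes were divided, with 11 of 30 higher and 14 lower, beside 23.1% and 25.7% over all genes. With the covariate 6 were higher and 9 lower, beside 2568 and 2480 of all 16770 genes. The peroxiredoxin *Prdx2* fell from between 2651 and 3085 to between 1918 and 2172 (log2 fold change -0.51, adjusted p = 2.7e-05) and the extracellular superoxide dismutase *Sod3* rose from between 33.4 and 46.1 to between 105 and 124 (log2 fold change 1.41, adjusted p = 5.8e-06).

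Genes of protein synthesis and breakdown differed by compartment. The proteasome degrades tagged proteins in the cytosol and nucleus, and 31 of 33 of its constitutive subunits were lower and none higher (median -0.37), whereas *Psmb8* and *Psmb9* of the immunoproteasome, counted with MHC class I, rose and *Psmb10* was not called. *Psmb7*, a catalytic subunit, had 1533, 1572, 1455 and 1432 normalized counts in the young and 1029, 1070.3, 1089.9 and 1099 in the old mice (log2 fold change -0.48, standard error 0.05, adjusted p = 1.3e-05), and *Psma5* fell from between 610.2 and 703 to between 441 and 495 (log2 fold change -0.49, adjusted p = 7.6e-05). Lysosomal hydrolases and membrane proteins were higher for 24 of 30 genes and lower for none (median 0.41). The cathepsins *Ctsh* and *Ctss*, which macrophages express, had the largest rises, from between 114 and 161 to between 441 and 482 (log2 fold change 1.72, adjusted p = 2.7e-08) and from between 456 and 726 to between 1513 and 1627 (log2 fold change 1.28, adjusted p = 2.4e-05). The V-ATPase, the pump that acidifies lysosomes and synaptic vesicles, was lower for 13 of 16 genes and higher for 1 (median -0.39). *Atp6v1c1* had 4005, 4228, 3569 and 3826 in the young and 2712, 2643, 2893 and 2715 in the old mice (log2 fold change -0.51, standard error 0.06, adjusted p = 2.7e-05), and *Atp6v0a2* was the subunit that rose (log2 fold change 0.29, adjusted p = 9.6e-04). The messages of lysosomal proteins and those of the pump therefore changed in opposite directions in their medians. Whether this holds within any cell type was not tested.

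Cytosolic ribosomal proteins were higher for 39 and lower for 1 of 72 genes, with a median of 0.19. *Rps27* rose from between 1836 and 2175 to between 2661 and 3104 (log2 fold change 0.48, adjusted p = 9.2e-05) and *Rplp0* fell from between 2111 and 2593 to between 1794 and 1955 (log2 fold change -0.37, adjusted p = 8.0e-04). With mouse 14 as the lone young mouse 25 were higher and 2 lower, and with the cerebellum markers as a covariate 1 was higher and 1 lower. Pseudogenes of these genes are many, which makes their counts uncertain. Chaperones of the cytosol and endoplasmic reticulum were higher for 9 and lower for 7 of 29 genes, beside 23.1% and 25.7% over all genes. Under the covariate 2 were higher, and without mouse 14 4 were lower. The small heat shock protein *Hspb1*, found in reactive astrocytes and vessels, had 85.5, 74.7, 48.3 and 78.1 normalized counts in the young and 279, 197, 236 and 264 in the old mice (log2 fold change 1.75, standard error 0.16, adjusted p = 3.0e-06), while the Hsp90 cochaperone *Ahsa1* fell by 0.47 on the log2 scale (adjusted p = 6.1e-04). Of 27 genes of sterol and fatty acid synthesis 12 were higher and 5 lower, beside 23.1% and 25.7% over all genes. Only 2 were lower without mouse 14, without mouse 19 or with the covariate. The regulator *Srebf1* had 1569, 1537, 1493 and 1451 in the young and 2762, 2730.3, 2660.3 and 2641 in the old mice (log2 fold change 0.83, standard error 0.05, adjusted p = 6.1e-08). The desaturase *Scd1* rose from between 2395 and 2549 to between 4017 and 4370.4 (log2 fold change 0.75, adjusted p = 2.1e-07), and *Acat2* fell from between 422 and 553 to between 318 and 344 (log2 fold change -0.54, adjusted p = 2.2e-04). Among 11 tested genes linked with cell senescence 6 were higher and 1 lower, beside 23.1% and 25.7% over all genes. The cell cycle inhibitor *Cdkn1a* had 83.4, 109, 77 and 94.1 in the young and 158, 141, 155 and 206 in the old mice (log2 fold change 0.85, standard error 0.15, adjusted p = 3.9e-04). *Cdkn2a*, the classical marker of senescence, was under the count minimum.

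By size alone, the 12 protein-coding genes with the largest rises above a minimum level were *Prl*, *Eno1b*, *Ckm*, *Tnnt3*, *Myh1*, *Mb*, *Depp1*, *H2-Q6*, *H2-Q7*, *Alb*, *C3* and *Itgax*. Their order is not given, since *Eno1b* and *Ckm* had at most 1 and 2 counts in a young library and *Prl* none. *Prl*, the pituitary hormone prolactin, had 0 counts in every young and 280.2, 246, 230.3 and 214 normalized counts in the old mice, at least 83.2-fold higher when up to 3 counts per young library are allowed for a count of 0. *Ckm*, *Tnnt3*, *Myh1* and *Mb* are muscle genes, and *Myh1* had 7.04, 11.9, 10.3 and 2.82 in the young and 86, 80.6, 831 and 74.9 in the old mice. Its adjusted p of 0.023 was 0.057 to 0.065 without any of the young mice and 9.6e-06 without old mouse 19, at a log2 fold change of 3.29. *Depp1*, which Foxo factors induce on fasting, had 10.1, 7.95, 10.3 and 11.3 in the young and 237, 262, 281 and 299 in the old mice, with no outlying animal (log2 fold change 4.77, standard error 0.15, adjusted p = 3.6e-10). The 12 genes with the largest falls, *Cbln3*, *Gabra6*, *Pcp2*, *Crtam*, *Ppp1r17*, *Cnpy1*, *Mybpc3*, *Car8*, *Arhgef33*, *Bcl2l15*, *En2* and *Cbln1*, were all low in young mouse 14. *Cbln3*, a granule cell gene of the cerebellum, had 3162, 43.7, 4435 and 3001 in the young and 9.55, 6.28, 9.14 and 7.79 in the old mice. Of the 265 genes that fell by at least 2-fold, 137 (51.7%) were in mouse 14 under 50% of the mean of the other young mice.

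Genes were therefore also ranked by the gap between the nearest mice of the ages, a ranking chosen after values had been seen, with falls restricted to genes whose level in mouse 14 was at least 50% of that in the other young mice. Among the rises it gave, *Cxcl12*, a chemokine of vessels and meninges, had 487, 420.3, 489.6 and 457 normalized counts in the young and 2289.6, 2483, 2478 and 2911 in the old mice (log2 fold change 2.46, standard error 0.08, adjusted p = 4.3e-10), and the ceramidase gene *Acer2* 95.5 to 128 and 701 to 822 (log2 fold change 2.76, adjusted p = 5.5e-10). The widest gap among the falls was that of *Tnnc1*, troponin C of heart and slow muscle, with 60.3, 61.2, 55.2 and 53.6 in the young and 19.1, 22, 22.4 and 17.5 in the old mice (log2 fold change -1.49, standard error 0.17, adjusted p = 1.5e-05), a direction opposite to the skeletal muscle genes. *Tmem163*, a zinc transporter of synaptic vesicles, had 495, 349, 465 and 433 and 159, 179, 188 and 177 (log2 fold change -1.30, standard error 0.11, adjusted p = 1.1e-06). *Kcnip1*, a potassium channel subunit of interneurons, fell from between 443 and 537 to between 232 and 255 (log2 fold change -1.03, adjusted p = 4.4e-07). The protein kinase A inhibitor *Pkia* and the calmodulin regulator *Pcp4* fell from between 3259 and 3389.8 to between 1682 and 1946 (log2 fold change -0.87, adjusted p = 1.2e-07) and from between 2866 and 3312 to between 1557 and 1731 (log2 fold change -0.89, adjusted p = 2.9e-07).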

How the data were processed

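Total cortex RNA of homozygous MRPS5 V338Y mice was sequenced by the study, one library per mouse. The authors deposited 1 table of estimated counts per Ensembl gene, not normalized and given as whole numbers of at most 4 significant digits. The methods name RSEM for these counts, whereas the submitters' processing notes name STAR 2.4.2a, featureCounts and the build GRCm38, and this conflict could not be resolved. Of 39179 identifiers 37693 were matched to GENCODE M21 symbols on GRCm38. Groups came from genotype and age in the labels.

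Genes with 10 or more counts in at least 2 of 4 libraries of a group were kept and scaled by TMM, and ages were compared with the edgeR 4.0.16 quasi-likelihood test (robust, R 4.3.3) on the 8 V338Y libraries, with Benjamini-Hochberg adjustment over all kept genes. Whether the age change differed between genotypes was tested as the interaction in all 16 libraries. Scripts were tested on simulated data. Total counts of 10029898 to 19601664 per library limit the precision of genes with few counts, and p-values measure the spread between these mice.

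The 12 protein-coding genes with the largest rises and falls were named among those outside chromosomes X and Y past the threshold of 0.05, without overlap between ages and with a mean of 50 or more normalized counts at the higher age, beside up to 3 genes of each list in its main direction, up to 2 in the other and a fixed set of well-known genes. The members and lists were chosen with earlier results of these data known, and the lists of skeletal muscle, GTPase and histone genes, the widest-gap ranking and the fit with mouse 14 alone were added after values had been seen. Alternatives were the likelihood-ratio test, DESeq2 1.42.0, RLE and library-size scaling, other count filters, all libraries in one fit, X and Y genes left out, a cerebellum covariate and leaving out each mouse. Some genes named by this rule are not reported here.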

Additional observations from a re-analysis of the deposited data

Results flagged for a closer look

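In 402 groups of 4 mice, made of the genes named and the summed lists, 22 (5.47%) held a mouse far from the others by Dixon's test, about as many as the 1 in 20 that chance gives. Values are normalized counts.

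Among the young mice, mouse 13 was the highest for *C4b* (583), *Lyz2* (169.9) and *Ndufs4* (968). Mouse 14 was the highest for *Abcc9* (213), *Col11a1* (338.5), *Map2* (27349) and *Eno1b* (0.795, from a single count) and the lowest for *Sod3* (33.4). Mouse 15 was the lowest for *Ctss* (456) and for the sum of the MHC class II genes (189.6) and the highest for *Alb* (37.9), and mouse 16 the highest for *Clec7a* (8.47).

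Among the old mice, mouse 17 was the lowest for *Snap25* (16399.6) and the highest for *Ahsa1* (1175) and for the sum of the integrated stress response genes (13328). Mouse 18 was the highest for *Bdnf* (354). Mouse 19 was the highest for *Myh1* (831) and for the sum of the skeletal muscle genes (3059). Mouse 20 was the highest for *mt-Nd2* (2324), *Alb* (465), *Pomc* (923) and the sum of the hippocampus genes (1910.3).

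The age change was smaller in V338Y than in wild-type mice in the test of the difference itself for 9 genes, with log2 differences of -2.52 for *Tgtp1*, -2.02 for *Gbp4*, -1.50 for *Igtp*, -1.35 for *Irgm2*, -1.18 for *Ptprv*, -1.09 for *Tap1*, -0.87 for *Fmod*, -0.81 for *Gbp7* and -0.61 for *Naaa*.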

How the results depend on the processing

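The count of 8181 genes stayed within 1.5 times under every alternative except the cerebellum covariate, with which 5048 changed, 2568 higher and 2480 lower. It was 7013 to 8573 when a mouse was left out, with 3428 to 4205 higher and 3539 to 4368 lower. With library size only, 39.1% of the calls were higher (3421 against 5319 lower), beside 47.4% with TMM. The 9 genes whose age change differed between the genotypes became 35 with the likelihood-ratio test, 43 with DESeq2, 32 without a count filter, 108 with the cerebellum covariate and 1 to 57 when a mouse was left out.

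Over the genes named in the age comparison, 2594 values kept their direction and call, 60 values of 21 genes lost their call and 7 changed sign, all of *Slc17a7*, which was not called: from 0.01 to -0.054 with library size only, -1.9e-04 without a filter, -0.16 with the covariate, -0.14 against mouse 14 alone and below 0 when mouse 16, 19 or 20 was left out (range over the mice -0.049 to 0.073). The median of the lymphocyte list went from 0.76 to -0.22 with 10 counts required in every library. Another 64 list medians moved and 871 did not.

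No paired analysis was possible because the young and old V338Y mice share no mouse number. Neither the sex that the libraries show nor the -N of the old labels can be told apart from age by any of these fits. A minimum of 10 counts per library keeps out most lymphocyte genes, 5 of 18 of which were tested.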

Other observations

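Genes of regions near the cortex varied between mice of 1 age. Choroid plexus genes, of the tissue that makes the cerebrospinal fluid, summed to 5802 to 13072 normalized counts in the young and 2896 to 38886 in the old mice, and 1 of 15 was higher with an adjusted p under 0.05. The prolactin receptor gene *Prlr*, of the same list, had 157, 137, 155 and 203 in the young and 850.2, 1284, 195 and 468 in the old mice, with old mouse 19 below the highest young one. Of 9 genes of pituitary and hypothalamus 3 were higher, beside 23.1% over all genes. *Pomc*, the precursor of corticotropin and melanocortins, had 26.1, 19.1, 19.5 and 29.2 and 84.4, 140.3, 93.1 and 923, with old mouse 20 far above the rest. Serum albumin, *Alb*, a liver protein, had 0, 3.97, 37.9 and 3.76 in the young and 78, 97.4, 92.3 and 465 in the old mice.

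Striatal genes were lower for 6 of 13 and higher for none (3 lower with the cerebellum covariate, 4 without mouse 14 and 9 against mouse 14 alone), with sums of 15373 to 17081 in the young and 13769.8 to 15053 in the old mice. Hippocampal genes were higher for 2 of 5 and thalamic genes for 2 of 6, with none lower, beside 23.1% higher over all genes. The beta-globin gene *Hbb-bs* had 2242, 1474, 1733 and 1141 in the young and 3412, 3930.5, 3871 and 4063 in the old mice, without overlap, and its adjusted p was 0.0013, or 0.051 with the cerebellum covariate (edgeR). *Eno1b*, a near-identical copy of the glycolytic enzyme gene *Eno1*, had 0, 0.795, 0 and 0 in the young and 70.1, 73.3, 69.8 and 68.1 in the old mice, and reads of the copies cannot be separated with certainty.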
